A study of Sus scrofa with 67 samples.

Results

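Messenger RNA of the longissimus dorsi, a back muscle of mostly fast fibres, was compared between pigs labelled for the standard protein diet (STD, n = 6) and pigs labelled BL (n = 7). These 13 libraries, of 67 in the series, were chosen by title alone: Standard Protein 1 to 6 are libraries 10 to 15 of the deposited count table, and BL1 to BL7 are libraries 1 to 7. All animals were Swiss Large White pigs, females or castrated males, drawn from 20 litters of a single farrowing series. STD pigs received feed of standard crude protein content, eaten freely, in weeks 1 to 4 after weaning. The labels do not explain BL, and neither its age nor its diet is given. The design text mentions 7 piglets that were not used further, without saying that they are BL. The sampling day of the STD libraries, the litter and the sex of each library are not given either. Library number, and anything that went with it in handling, cannot be told apart from the group. The low protein group of the same weeks (LP, n = 6), whose feed held 81% of the total crude protein, and the group kept on standard feed in weeks 5 to 8 (STD-STD, n = 12) are used below only to describe levels.

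Skeletal muscle burns either fatty acids or glucose. Long-chain fatty acids enter the mitochondrion through the carnitine shuttle, whose first step is blocked by malonyl-CoA, and are then shortened by beta-oxidation, while pyruvate dehydrogenase kinases hold back the oxidation of glucose. Muscle also makes amino acids and loads them onto transfer RNAs, and many genes of that machinery are targets of ATF4, a transcription factor whose translation increases when amino acids run short or proteins misfold. Genes of protein breakdown such as FBXO32 are known to be induced by glucocorticoids and by fasting.

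Total counts were 26680567 to 34338980 in the BL libraries and 31974264 to 35769605 in the STD libraries. Values below are CPM, the counts of a gene scaled to a common library size, after normalisation. Muscle identity genes were abundant in every library, with a mean log2 CPM of 12.10 to 12.92 in BL and 12.59 to 13.09 in STD. Reads of Y-linked genes were present in 4 of 7 BL and 3 of 6 STD libraries. The library BL 4 stood apart from its group. In it 98 genes were at least 4-fold above and 158 at least 4-fold below all other BL libraries, against at most 6 genes in either direction for any other BL library. Its median correlation with its group over genes was 0.908, against 0.961 to 0.968 for the other BL libraries (Pearson, log2 CPM). STD 4 stood apart to a smaller degree, with 6 genes above and 11 below its group. Results are therefore given with all 7 BL libraries and again without BL 4.

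Of 13517 genes tested, 905 (6.7%) passed an adjusted p of 0.05 (edgeR quasi-likelihood test, all 67 libraries in the fit, Benjamini-Hochberg), of which 354 (2.62%) were higher and 551 (4.08%) lower in STD. Below, "rose" and "fell" mean higher and lower in STD than in BL among genes past that threshold. Without BL 4 the count was 654 of 13506 (4.84%), with 320 higher (2.37%) and 334 lower (2.47%). The same 463 genes were called in the same direction by both fits, 210 higher and 253 lower. BL 4 held the highest value of the 13 libraries in 339 of the 551 genes called lower (61.5%). It held the lowest value in 195 of the 354 called higher (55.1%). The same shares over all tested genes were not computed. A fit of the 13 libraries alone, which estimates the spread from these 2 groups only, called 106 genes (0.841%), and without BL 4 it called 267 (2.12%). Leaving out STD 3 in place of BL 4 gave 555 genes, the lowest count of the 13 fits without 1 library, and leaving out BL 6 gave 1165, the highest. Both fits of all groups and this 12-library fit called the same 190 genes, 66 higher and 124 lower. The median log2 difference over all genes was -0.02, and near 0 without BL 4.

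Among regulators of fuel choice some genes fell, and PDK4 had the largest fall of the genes named by rank with all BL libraries. Of 22 tested regulators of fuel choice, 7 fell and 1 rose with all BL libraries, and 5 fell and 1 rose without BL 4. The median log2 difference of the list was -0.18, and -0.13 without BL 4, and 8 of the 22 differences were above 0. PDK4, which shuts pyruvate dehydrogenase and so spares glucose, measured 297, 164, 345, 4249, 450, 151 and 1561 CPM in BL 1 to BL 7. In STD 1 to STD 6 it measured 3.63, 55.1, 5.26, 3.49, 38.8 and 4.21 CPM. Every STD library was below every BL library, and STD 2 and STD 5 stood above the other 4. The log2 difference was -5.80 ± 1.49 (SE), with an adjusted p of 0.00981, and -4.75 ± 1.41 without BL 4, with an adjusted p of 0.0334. PDP2, a phosphatase that opens pyruvate dehydrogenase, rose instead (log2 difference 0.70 ± 0.17), from a median of 5.05 CPM in BL to 8.79 CPM in STD. The groups touched in PDP2, with 7.06 CPM in the highest BL and 6.75 CPM in the lowest STD library. UCP3, a mitochondrial carrier protein that follows fatty acid supply, fell by 2.88 ± 0.48 on the log2 scale, and by 2.63 ± 0.48 without BL 4. ANGPTL4, a secreted inhibitor of lipoprotein lipase, ran from 21.6 to 77.8 CPM in BL with a median of 39.4, and from 7.54 to 17.1 CPM in STD with a median of 8.74. All 6 STD libraries were below all 7 BL libraries, and the log2 difference of -2.11 ± 0.48 became -2.14 ± 0.49 without BL 4. KLF11, a zinc-finger transcription factor, fell by 1.94 ± 0.51, with 6.44 to 21.4 CPM in BL and 1.47 to 5.09 CPM in STD. KLF15 and LPIN1 fell by 1.21 ± 0.37 and 0.96 ± 0.24 with BL 4. Without it the differences were -0.53 ± 0.32 and -0.40 ± 0.19, at adjusted p of 0.397 and 0.224.

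**Figure D1:**
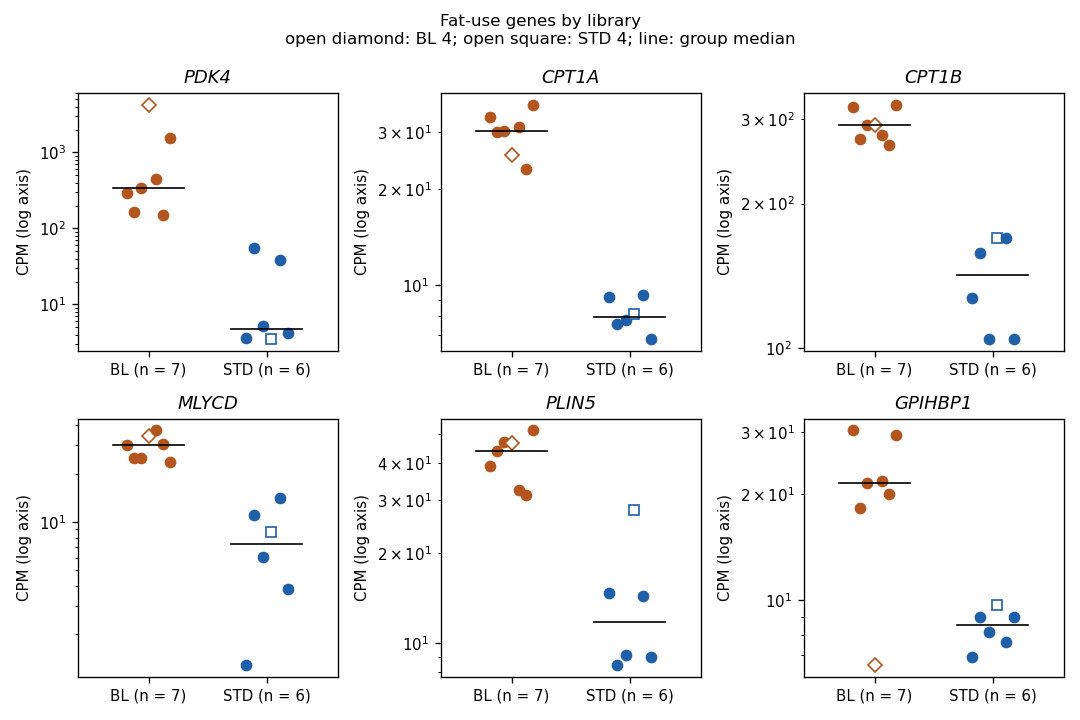
CPM on log axes of 6 genes of fat use in the 7 BL and 6 STD libraries, 1 point per library, with the group median as a line. CPT1A, CPT1B, MLYCD, PDK4 and PLIN5 do not overlap between the groups, and GPIHBP1 overlaps through BL 4 at 6.57 CPM.

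All 7 tested members of the carnitine shuttle fell, and 6 of 7 fell without BL 4, at a median log2 difference of -1.07 in both fits. In 6 of the 7 every STD library lay below all 7 BL libraries, a pattern that 0.703% of all tested genes showed. Outer-membrane entry has a liver form and a muscle form. CPT1A, the liver form (chromosome 2, 4250642 to 4293914, Sscrofa11.1), measured 23.1 to 36.6 CPM in BL with a median of 30.4, and 6.78 to 9.34 CPM in STD with a median of 7.94. The groups were far apart and each was narrow, giving 3.70-fold lower levels in STD (log2 difference -1.89 ± 0.29, adjusted p = 1.47e-05). CPT1B, the muscle form (chromosome 5, 155552 to 163536), measured 265 to 321 CPM in BL with a median of 292, and 104 to 169.6 CPM in STD with a median of 142. It was 2.10-fold lower, again with no overlap. BL 4 was in the range of its group for both genes, and the differences were -1.92 ± 0.30 and -1.07 ± 0.15 without it.

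MLYCD encodes malonyl-CoA decarboxylase, which removes the inhibitor of the first step. Its 7 BL values ran from 23.7 to 37.0 CPM with a median of 29.9, and its STD values from 1.30 to 14.1 CPM with a median of 7.34. STD 1, at 1.30 CPM, was the lowest, and the groups did not overlap (log2 difference -1.97 ± 0.43, and -1.93 ± 0.45 without BL 4). ACACB, the muscle enzyme that makes malonyl-CoA, differed by -0.63 ± 0.17 with BL 4 and by -0.37 ± 0.14 without it, where it no longer passed (adjusted p = 0.126). SLC25A20, the carrier of acylcarnitine across the inner membrane, fell 1.81-fold and CPT2, which frees the fatty acid inside, fell 3.10-fold. CRAT, which handles short acyl groups, fell 1.67-fold, with 728 to 1023 CPM in BL against 461 to 705 CPM in STD. These 3 genes also passed without BL 4 and in the 12-library fit, at adjusted p of 0.0073, 0.00165 and 0.00815.

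Of 16 tested genes of mitochondrial beta-oxidation, 8 fell, 7 fell without BL 4 and none rose in either fit. The median log2 difference was -0.38, and -0.39 without BL 4. The dehydrogenases that open the cycle fell, by 0.80 ± 0.12 for ACADVL (very long), by 0.95 ± 0.15 for ACADL (long) and by 0.50 ± 0.13 for ACADM (medium) on the log2 scale. Differences between these 3 genes were not tested. ETFDH, which passes their electrons to the respiratory chain, ran from 172 to 276 CPM in BL and from 96.6 to 162 CPM in STD, without overlap. ACAA2, the thiolase of the last step, fell by 0.85 ± 0.12, and its lowest BL library, BL 4 at 63.6 CPM, lay just below the highest STD library at 64.8 CPM. STD 4 was the highest STD library for HADHA, HADHB, ACADM and ETFDH, and also had the highest slow fibre score in STD, a mean log2 CPM of 10.18 against 8.73 to 9.01 in the other 5, whose part in these values was not tested. ECH1, which helps to oxidise unsaturated fatty acids, and HSDL2, a dehydrogenase-like protein, both named after their values were seen, fell by 1.07 ± 0.15 and 1.10 ± 0.19.

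Genes that bring fatty acids to the fibre or store them changed in part. GPIHBP1, which holds lipoprotein lipase on the capillary wall and was named after its values were seen, measured 18.3 to 30.4 CPM in 6 BL libraries, 6.57 CPM in BL 4, and 6.91 to 9.72 CPM in STD. BL 4 alone sat among the STD values, and the log2 difference was -1.34 ± 0.24 with it and -1.50 ± 0.22 without it. In bulk tissue, fewer cells of a type and less RNA per cell cannot be told apart. Of the 15 endothelial markers tested, 1 fell, and none fell without BL 4, with a summed level of 445 to 869 CPM in BL and 600.4 to 753 CPM in STD. The 445 CPM was in BL 4, and the other BL libraries held 630 to 869 CPM. Without BL 4, 14 of the 15 differences were below 0, at a median of -0.17. The part of capillary content in the GPIHBP1 result was not tested. Of 10 uptake and activation genes 4 fell, and 3 without BL 4. ACSL1, which couples fatty acids to coenzyme A, was 287 to 387 CPM in 6 BL libraries and 162 to 198 CPM in STD, with BL 4 at 198 CPM. For ACSL1 every STD library was below those 6, as for 1.32% of all tested genes. FABP3, the fatty acid binding protein of muscle, fell by 0.73 ± 0.21, with wide overlap, STD 4 being at 169.7 CPM and BL 4 at 45.0 CPM. CD36, a fatty acid receptor at the cell surface, differed by -0.47 ± 0.14 with BL 4, and by -0.33 ± 0.13 without it, where it did not pass (adjusted p = 0.131).

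Among 15 genes of lipid droplets and lipolysis, 4 fell, and 2 without BL 4. PLIN5, which ties droplets to mitochondria, measured 31.3 to 51.3 CPM in BL with a median of 44.0, and 8.45 to 27.9 CPM in STD with a median of 11.7. STD 4 was the highest STD library and the groups were apart (log2 difference -1.58 ± 0.27). PLIN2, a droplet coat protein, fell by 1.54 ± 0.29, and by 1.23 ± 0.28 without BL 4. LIPE, hormone-sensitive lipase, measured 389 CPM in BL 4, 21.8 to 49.3 CPM in the other BL libraries and 12.6 to 25.0 CPM in STD. Its log2 difference of -2.05 ± 0.42 shrank to -0.63 ± 0.27 without BL 4, at an adjusted p of 0.174. AQP7, a glycerol channel, fell by 1.00 ± 0.20, and by 1.02 ± 0.21 without BL 4.

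Some genes of the respiratory chain fell, where 4.08% of all tested genes fell, and 2.47% without BL 4. Of 33 genes of complex I, 4 fell, and 6 without BL 4, at a median log2 difference of -0.06 and -0.12. Of 30 genes of complexes III to V, 4 fell, and 5 without BL 4, at a median of -0.14 and -0.19. Without BL 4, 30 of the 33 and 26 of the 30 differences were below 0. COX7A1, the muscle form of a cytochrome oxidase subunit, ran from 70.3 to 104 CPM in BL and from 40.4 to 63.4 CPM in STD, without overlap. NDUFA4, COX6C and NDUFV3 fell by 0.40 ± 0.12, 0.43 ± 0.11 and 0.34 ± 0.08. Of 8 transcripts of the mitochondrial genome, 3 fell (4 without BL 4), and all 8 differences were below 0 at a median of -0.37. ND6, CYTB, COX1, COX3 and ATP6 had no entry under those symbols in the deposited counts. The share of all counts that came from the 8 transcripts was 3.23% ± 0.497 (SD, n = 6) in STD and 4.54% ± 0.623 (SD, n = 7) in BL. The exact two-sided permutation p was 0.00466. The ranges overlapped between 3.62% in BL 7 and 4.11% in STD 1, and without BL 4 the exact p was 0.00866. Of 19 tested genes of the tricarboxylic acid cycle 2 rose and 1 fell, and 1 rose and 1 fell without BL 4. Their median log2 difference was -0.01, and -0.10 without BL 4, where 17 of the 19 differences were below 0. Against that direction PC, pyruvate carboxylase, which refills the cycle from pyruvate, rose by 0.90 ± 0.17 on the log2 scale. PC measured 18.3 to 40.2 CPM in BL and 45.8 to 66.9 CPM in STD, so every STD library was above every BL library, which held for 0.363% of all genes.

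Some genes of glucose use rose. Of 24 glycolysis genes 5 rose and 1 fell, and 3 rose and 1 fell without BL 4. Of 18 glycogen genes 4 rose, and 2 without BL 4. PFKFB1, which makes and removes an activator of phosphofructokinase, measured 43.2 to 60.8 CPM in BL and 67.3 to 109.5 CPM in STD, with no overlap (log2 difference 0.66 ± 0.13). GYS1, muscle glycogen synthase, rose by 0.63 ± 0.13, with the groups overlapping through 1 BL library at 815 CPM. PHKA1, a phosphorylase kinase subunit, rose by 0.56 ± 0.17, and BPGM, bisphosphoglycerate mutase, best known from red cells, by 0.77 ± 0.23. BPGM was 5.20 CPM in BL 4 and 45.4 CPM or more in the other BL libraries, and still passed without BL 4 (0.57 ± 0.16). GPD1, glycerol-3-phosphate dehydrogenase, rose by 0.61 ± 0.17, and by 0.44 ± 0.13 without BL 4. LDHB, the heart-type lactate dehydrogenase subunit, measured 116 to 135 CPM in 5 STD libraries and 288 CPM in STD 4. It fell with all libraries (adjusted p = 0.028) and no longer passed without BL 4 (adjusted p = 0.0623), while its log2 difference hardly moved, from -0.60 ± 0.18 to -0.56 ± 0.19.

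Of 21 tested genes of amino acid synthesis, 10 rose and 1 fell, and without BL 4, 11 rose and none fell. The median log2 difference was 0.64, and 0.70 without BL 4. PSAT1, an aminotransferase of serine synthesis, measured 4.55, 7.06, 5.78, 0.571, 3.78, 37.1 and 19.4 CPM in BL 1 to BL 7. In STD 1 to STD 6 it measured 161, 269.8, 143, 10.4, 207 and 197 CPM. STD 4 stood below BL 6 and BL 7, the other 5 STD libraries stood above every BL library, and BL 4 was lowest of all. ASNS, asparagine synthetase, was 2.43 to 73.6 CPM in BL with a median of 26.5, and 33.3 to 415 CPM in STD with a median of 226. Here too STD 4 was the only STD library within the BL range, and the log2 difference was 2.81 ± 0.49 (2.60 ± 0.48 without BL 4).

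**Figure D2:**
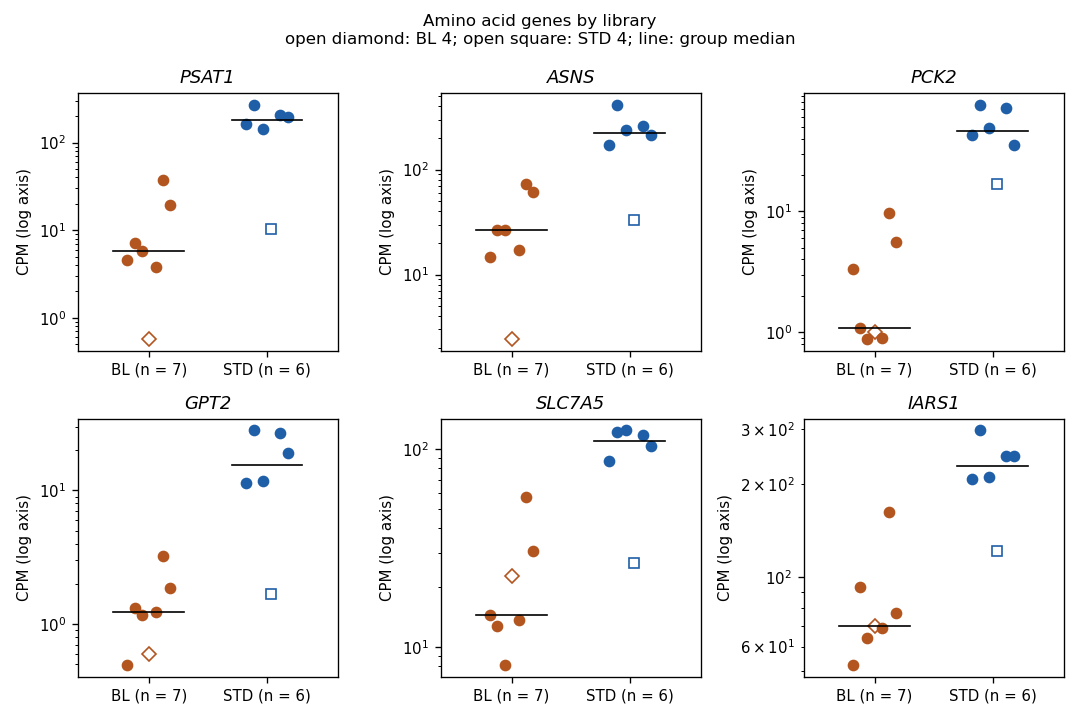
CPM on log axes of 6 genes of amino acid synthesis, transport and tRNA loading in the 7 BL and 6 STD libraries, 1 point per library, with the group median as a line. PCK2 does not overlap between the groups, with 16.8 CPM in STD 4 and 9.72 CPM in BL 6, and in the other 5 genes STD 4 falls within the BL range.

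PCK2, the mitochondrial enzyme that makes phosphoenolpyruvate, was the 1 member of this list in which the groups did not overlap. It measured 0.877 to 9.72 CPM in BL with a median of 1.09, and 16.8 to 76.1 CPM in STD with a median of 45.8. STD was 15.2-fold higher (log2 difference 3.93 ± 0.77), and 13.6-fold higher without BL 4. ARG2, mitochondrial arginase, showed a difference of 3.95 ± 0.76, from a median of 2.75 CPM in BL to 172 CPM in STD. BL 6 reached 45.4 CPM of ARG2 and STD 4 only 6.57 CPM, and ARG2 did not pass in the 12-library fit (adjusted p = 0.108). GPT2, mitochondrial alanine transaminase, rose by 3.53 ± 0.75, from a median of 1.24 to 15.5 CPM. In the branch that carries single carbons in the mitochondrion, SHMT2, MTHFD2 and ALDH1L2 rose by 1.27 ± 0.29, 1.52 ± 0.34 and 0.86 ± 0.22. GLUL, glutamine synthetase and a glucocorticoid target, was the 1 member that fell, and only with BL 4, where it stood at 1914 CPM against 155 to 428 CPM in the other BL libraries.

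Several regulators of this response also rose. Of 17 genes tested, 7 rose and 1 fell, 5 rose without BL 4, and 4 rose without STD 2. ATF4 mRNA itself differed by 0.44 ± 0.17 with all libraries, which did not pass, and by 0.58 ± 0.16 without BL 4, which did (adjusted p = 0.0238). BL 4 held 1281 CPM of ATF4, above all STD libraries (1010.1 to 1277 CPM), while the other BL libraries held 598 to 1012 CPM. ATF5, a related factor, rose 8.07-fold, from a median of 10.5 CPM in BL to 179 CPM in STD. TRIB3, a pseudokinase that restrains ATF4, rose by 3.85 ± 0.88, and by 4.11 ± 0.96 without BL 4. TRIB3 was 0.191 to 1.37 CPM in BL and 1.04 to 33.6 CPM in STD, with STD 1 and STD 4 inside the BL range. SESN2, a leucine sensor that holds back the growth kinase mTORC1, rose by 2.92 ± 0.80, and by 3.30 ± 0.86 without BL 4. CEBPG, a partner of ATF4, rose by 1.20 ± 0.31, and by 1.20 ± 0.32 without BL 4. ATF3, a stress-induced factor, and FGF21, a hormone released by stressed muscle, rose by 2.77 ± 0.81 and 2.08 ± 0.59. Without BL 4 the differences of ATF3 and FGF21 were of similar size, 2.64 ± 0.86 and 1.88 ± 0.60, but did not pass, at adjusted p of 0.061 and 0.0546.

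Of 20 amino acid transporters 7 rose, and 6 rose and 1 fell without BL 4. SLC7A5 and SLC3A2 form the leucine exchanger at the cell surface. SLC7A5 measured 8.12 to 57.2 CPM in BL with a median of 14.5, and 26.4 to 124 CPM in STD with a median of 110.2. All STD libraries but STD 4 were above all BL libraries. SLC3A2 rose by 1.31 ± 0.38, and by 1.50 ± 0.40 without BL 4. SLC7A1, which carries lysine and arginine, SLC1A5, which carries glutamine, and SLC6A9, which carries glycine, rose by 1.64 ± 0.46, 1.16 ± 0.27 and 1.57 ± 0.38. SLC7A11, which brings in cystine, was scarce, at 0 to 0.325 CPM in BL and 0 to 2.73 CPM in STD, and rose by 3.35 ± 0.84. SLC38A4, a carrier of neutral amino acids, fell without BL 4 (-0.87 ± 0.24).

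Of 20 cytosolic tRNA synthetases, which load amino acids onto tRNAs, 11 rose, 13 rose without BL 4 and none fell. Their median log2 difference was 0.50, and 0.55 without BL 4. IARS1, for isoleucine, ran from 52.4 to 162 CPM in BL with a median of 69.7, and from 121 to 296 CPM in STD with a median of 228. STD 4, at 121 CPM, was the only STD library below the highest BL library, BL 6. SARS1, AARS1, GARS1 and TARS1, for serine, alanine, glycine and threonine, rose by 1.52 ± 0.28, 1.34 ± 0.29, 1.47 ± 0.32 and 1.35 ± 0.25. EPRS1, for glutamate with proline, rose by 0.68 ± 0.13. In the 12-library fit 3 synthetases, 2 transporters, 2 regulators and 6 synthesis genes passed. EIF2S2, a subunit of the initiation factor that brings the first tRNA to the ribosome, rose by 0.87 ± 0.15, and by 0.92 ± 0.15 without BL 4. Of 28 initiation genes in all 1 rose and 1 fell, and of 47 ribosomal protein genes 1 rose and 1 fell.

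Some genes of lipid synthesis rose, fewer of them without BL 4. Of 24 genes of cholesterol synthesis and uptake 11 rose and none fell, at a median log2 difference of 0.59. Without BL 4 only 4 rose, at a median of 0.50, and BL 4 was the lowest of all libraries on this list, with a mean log2 CPM of 2.37 against 2.91 to 3.28 in the other BL libraries and 3.23 to 4.34 in STD. The 4 included LSS, DHCR7 and EBP, enzymes that close and trim the sterol ring. SREBF2, the transcription factor that drives the pathway, rose by 0.51 ± 0.14 with BL 4 and differed by a similar 0.45 ± 0.14 without it, which did not pass (adjusted p = 0.0517). The count of 11 was 4 without STD 1 and 7 without STD 3 or STD 6. Of 19 fatty acid synthesis genes 4 rose, 3 without BL 4, 2 without STD 1 and 1 without STD 6. FASN, fatty acid synthase, was 26.6 to 186 CPM in BL with a median of 41.5, and 124 to 577 CPM in STD with a median of 228. BL 6 overlapped the STD range for FASN, and none of the 19 genes passed in the 12-library fit. Of 13 adipocyte markers 2 rose and 3 fell, with a summed level of 915 to 2079 CPM in BL and 1319 to 2409 CPM in STD, and the part of fat cells in these results was not tested.

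**Figure D3:**
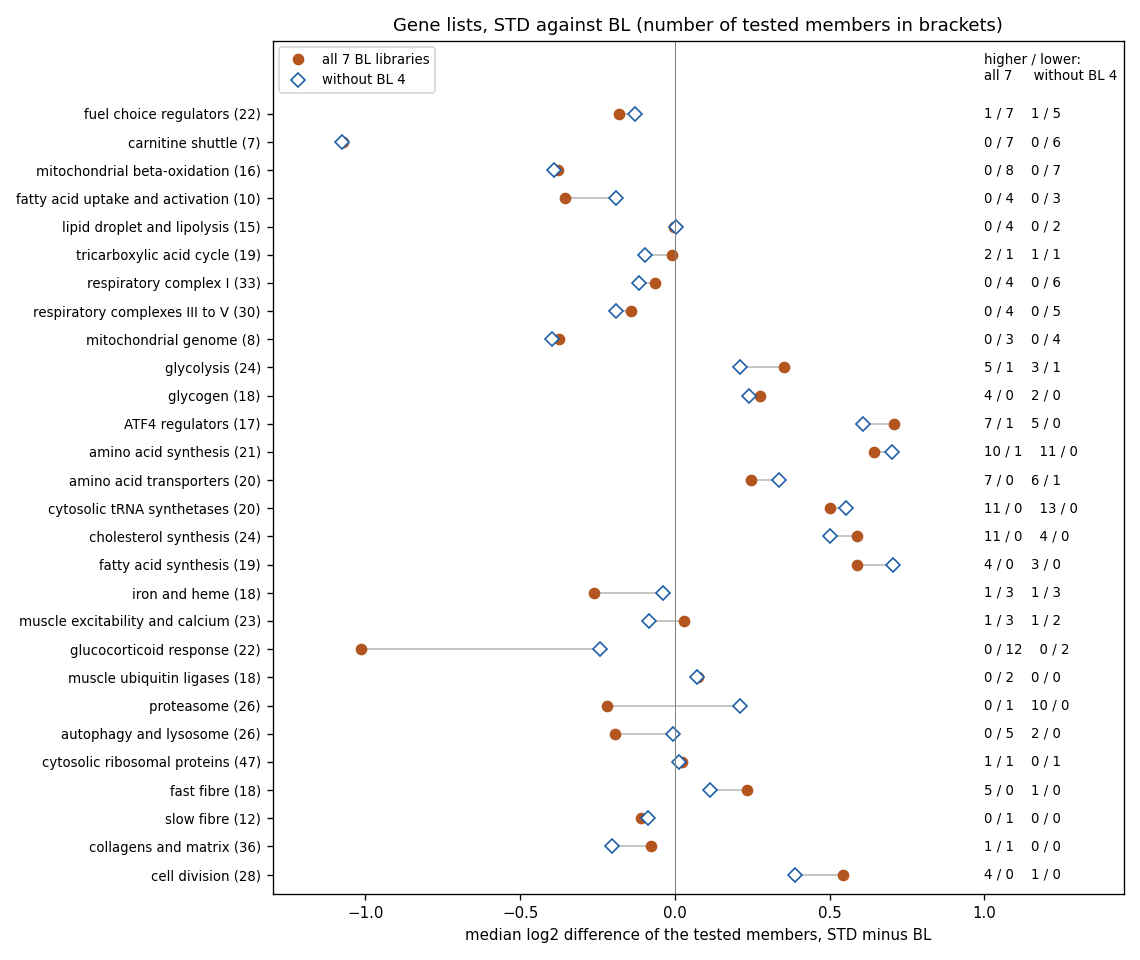
Median log2 difference (STD minus BL) of the tested members of 28 gene lists, with all 7 BL libraries (filled) and without BL 4 (open), and the number of members higher and lower in STD under each. The carnitine shuttle stands at -1.07 in both, the glucocorticoid list moves from -1.02 to -0.24 and the proteasome from -0.22 to 0.21.

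A few genes of iron handling changed in mRNA level, among them a ferritin chain and the transferrin receptor. Of 18 genes tested 3 fell and 1 rose, with the same counts but not the same genes without BL 4. FTH1, the ferritin heavy chain that stores iron, measured 1103 to 1831 CPM in BL with a median of 1461, and 488 to 963 CPM in STD with a median of 749. Every STD library was below every BL library (log2 difference -0.97 ± 0.12, adjusted p = 1.35e-08, and -1.01 ± 0.12 without BL 4). Ferritin has many processed copies, so reads may be shared with them. TFRC, the transferrin receptor that takes iron up, fell by 1.77 ± 0.37, and by 1.98 ± 0.33 without BL 4, where it had stood at 19.1 CPM against 119 to 424 CPM in the other BL libraries. NCOA4, the receptor that delivers ferritin for breakdown, rose by 0.25 ± 0.07, and all STD libraries (111 to 119.8 CPM) were above the 6 other BL libraries (77.9 to 105 CPM). HMOX2, a heme oxygenase, passed only with BL 4, which held 665 CPM against 28.5 to 38.1 CPM in the rest of BL.

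Several ion channel genes differed strongly. KCNN1, a calcium-gated potassium channel, had the largest rise of all named genes with BL 4, 4.06 ± 0.64 on the log2 scale (3.87 ± 0.67 without BL 4, where TRIB3 was larger). It was scarce, at 0 to 0.836 CPM in BL and 0.726 to 13.9 CPM in STD, and STD 6 alone lay inside the BL range. KCNIP2, which modulates voltage-gated potassium channels, measured 1.40 to 4.82 CPM in BL with a median of 3.19, and 9.59 to 26.1 CPM in STD with a median of 17.9. The groups did not overlap, and the log2 difference was 2.54 ± 0.53. KCNJ2, the inward rectifier that sets the resting potential, fell by 0.61 ± 0.16. TRPV3, a calcium-permeable channel, fell by 2.86 ± 0.59, from a median of 5.30 to 0.708 CPM. KCNIP2 and KCNJ2 belong to a list of 23 excitability genes, of which 1 rose and 3 fell, and 1 rose and 2 fell without BL 4.

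**Figure D4:**
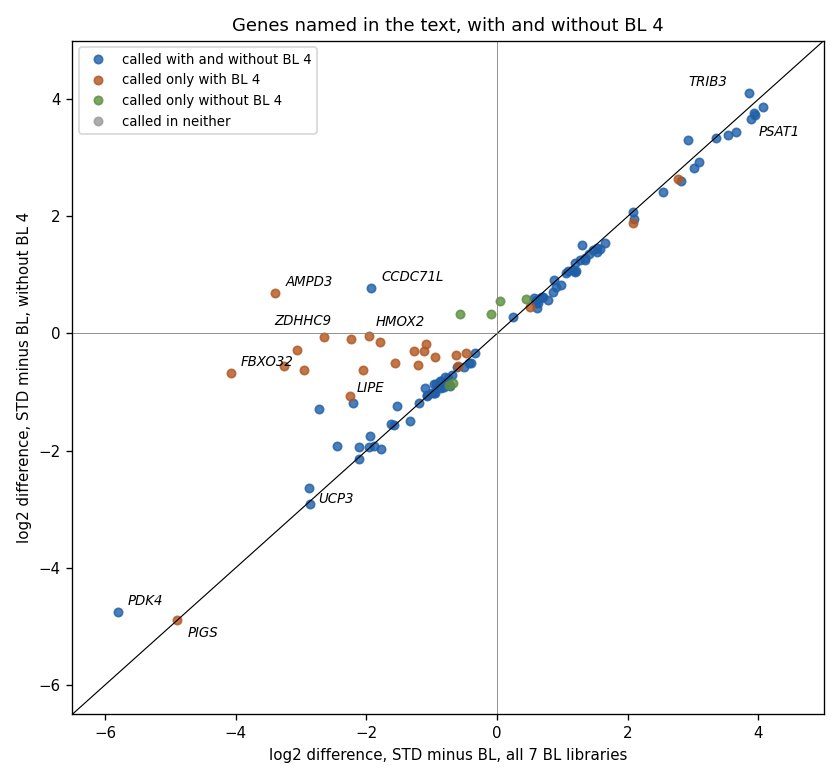
Log2 difference (STD minus BL) of the genes named in the text with all 7 BL libraries (x axis) and without BL 4 (y axis), with the line of equality. PDK4 and UCP3 stay far below 0 on both axes, while FBXO32, ZDHHC9 and HMOX2 drop to small differences without BL 4 and AMPD3 changes sign.

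A set of protein breakdown and glucocorticoid genes passed through BL 4. Of 22 glucocorticoid targets 12 fell, at a median log2 difference of -1.02. Without BL 4 only TXNIP and ANGPTL4 fell, and the median was -0.24. FBXO32, a muscle ubiquitin ligase, measured 14.9, 12.4, 28.8, 1519.7, 21.4, 17.4 and 39.5 CPM in BL 1 to BL 7 and 7.45 to 23.4 CPM in STD. The difference of -4.07 ± 0.75 became -0.68 ± 0.42 without BL 4, with an adjusted p of 0.409. The other 6 BL libraries overlapped the STD range. TRIM63, a second such ligase, FKBP5, a co-chaperone of the glucocorticoid receptor, and the transcription factors FOXO1 and FOXO3 passed with BL 4 and had adjusted p of 0.274, 0.863, 0.272 and 0.404 without it. The same held for AMPD3, GALNT15, SMPDL3A, RETREG1, ZDHHC9, IL6R and CEBPD, which are among the 15 largest falls with BL 4 and differed by -1.06 (CEBPD) to 0.69 (AMPD3) without it. TXNIP, which restrains glucose uptake, kept a difference of -1.93 ± 0.46 without BL 4. ARRDC2 and ARRDC3, arrestin-like relatives of TXNIP, and GADD45G, a growth arrest gene, fell by 1.92 ± 0.42, 1.29 ± 0.36 and 1.18 ± 0.35 without BL 4.

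The proteasome, which degrades ubiquitin-tagged proteins, turned with that library. With all BL libraries 1 of 26 subunit genes fell and none rose, and 24 of the 26 differences were below 0 at a median of -0.22. Without BL 4, 10 rose, none fell and all 26 differences were above 0, at a median of 0.21. The mean log2 CPM of the list was 7.51 in BL 4, 5.62 to 5.82 in the other BL libraries and 5.81 to 6.07 in STD. PSMB4, a core subunit, measured 193 CPM in BL 4, 49.7 to 62.3 CPM in the other 6 and 64.2 to 82.8 CPM in STD, so all STD libraries were above those 6. Its log2 difference was -0.09 ± 0.15 with BL 4 and 0.33 ± 0.07 without it (adjusted p = 0.00304). PSMD14 and PSMD11, lid subunits, rose by 0.56 ± 0.11 and 0.33 ± 0.09 without BL 4. No proteasome gene passed in the 12-library fit. CCDC71L, a gene named after its values were seen, was the 1 gene called in both fits with opposite directions, at -1.93 ± 0.51 with BL 4 and 0.78 ± 0.21 without it.

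Structural genes and markers of other cells were also counted. Of 18 fast fibre genes 5 rose with BL 4 and 1, GPD1, without it. Over all tested genes 2.62% rose, and 2.37% without BL 4. Of 12 slow fibre genes 1 fell, and none without BL 4. The fast and slow myosin heavy chains MYH1, MYH2, MYH4 and MYH7 had no entry under those symbols, so they were not tested. Of 36 collagen and matrix genes 1 rose and 1 fell, and none passed without BL 4. Without BL 4, 32 of these 36 differences were below 0, at a median of -0.20 (-0.08 with it). BL 4 had the lowest matrix score, 5.56 mean log2 CPM against 6.64 to 7.43 in the other BL libraries. Of 28 cell division genes 27 differences were above 0, at a median of 0.54 (0.39 without BL 4), and 4 rose with BL 4, which had the lowest score (0.38 mean log2 CPM, against 1.73 to 2.51 in the other BL libraries), and MCM6, a DNA replication helicase subunit, rose in both fits (0.59 ± 0.14 and 0.52 ± 0.14). MSTN, myostatin, the inhibitor of muscle growth, fell without BL 4 (-0.84 ± 0.22) and did not pass with it. Summed macrophage markers spanned 36.3 to 253 CPM in BL, highest in BL 4, and 85.0 to 160.4 CPM in STD, and 1 of 13 tested fell. The median difference of the macrophage list was -0.02 with BL 4 and 0.44 without it, where 12 of 13 differences were above 0. Of 15 lymphocyte markers 1 rose, at a median of 0.53 (0.66 without BL 4), and their summed level was 32.0 to 55.6 CPM in BL and 36.9 to 53.6 CPM in STD. No erythroid, Schwann cell or liver marker passed, at medians of -0.08, -0.56 and -0.72. The part of these cells in the results was not tested. LYZ of macrophages and S100A8 of neutrophils had no reads in any of the 13 libraries, but neither had RPS6 and RPL31, ribosomal protein genes that every cell uses, so a gene listed at 0 need not have been absent.

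Genes outside these lists were named by rank. POLR3GL, a subunit of RNA polymerase III, measured 17.8 to 31.1 CPM in BL with a median of 27.5, and 8.61 to 14.7 CPM in STD with a median of 11.08. GDE1, a glycerophosphodiester phosphodiesterase, measured 40.2 to 60.8 CPM in BL with a median of 45.1, and 24.5 to 28.4 CPM in STD with a median of 25.4. Neither overlapped between the groups, and both had an adjusted p of 4.15e-10, with log2 differences of -1.19 ± 0.13 and -0.88 ± 0.09. GRK3, a kinase that quiets G protein-coupled receptors, rose by 1.09 ± 0.16, and overlapped only through BL 5 at 19.8 CPM and STD 6 at 19.3 CPM. CHPT1, which makes phosphatidylcholine, rose by 0.60 ± 0.10 and did not overlap, with at most 43.3 CPM in BL and at least 48.7 CPM in STD. TMEM117, a membrane protein, rose by 1.19 ± 0.19. MIOX, which opens the inositol ring, rose by 3.66 ± 0.78, with 9.14 to 10.6 CPM in 5 STD libraries, 1.56 CPM in STD 4 and 0.0571 to 2.57 CPM in BL. ANKRD1, a stretch-responsive muscle protein, rose by 3.09 ± 0.78, but ran from 3.05 to 1808 CPM within STD and did not pass in the 12-library fit (adjusted p = 0.208). PIGS, of GPI-anchor synthesis, was split within BL, above 10 CPM in 5 libraries and at 0.585 and 1.86 CPM in BL 3 and BL 7, and was 0.203 to 0.787 CPM in STD. Its log2 difference was -4.89 with and without BL 4, at an adjusted p of 0.0468 with it and 0.0631 without it.

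**Figure D5:**
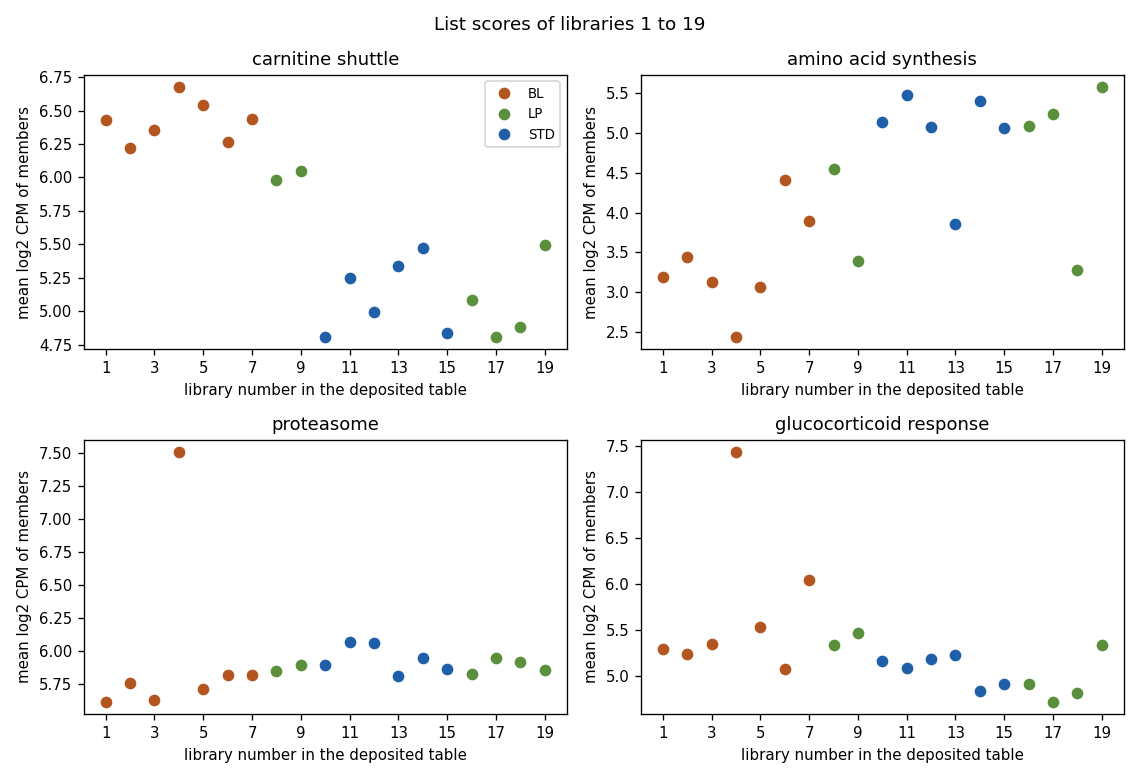
Mean log2 CPM of the members of 4 gene lists in libraries 1 to 19, by library number and group. The carnitine shuttle is 6.22 to 6.67 in BL, 5.98 to 6.05 in LP libraries 8 and 9 and 4.81 to 5.49 in libraries 10 to 19, and BL 4 stands alone for the proteasome at 7.51.

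The levels in the other groups gave the size of these differences a setting, with no test. LP is split in the table, with LP 1 and LP 2 at libraries 8 and 9 beside BL, and LP 3 to LP 6 at libraries 16 to 19 beside STD. CPT1A was 25.0 and 27.4 CPM in LP 1 and LP 2, within the BL range, and 7.87 to 10.4 CPM in LP 3 to LP 6. MLYCD was 33.9 and 34.2 CPM against 2.57 to 15.4 CPM, and PDK4 was 328 and 343 CPM against 3.08 to 134 CPM. PDK4 was within the BL range in libraries 8 and 9. Its highest value in libraries 16 to 19, 134 CPM, lay above every STD library and below every BL library. For CPT1A and MLYCD, LP was near BL in libraries 8 and 9 and near STD in libraries 16 to 19. FTH1 and GPIHBP1 did not follow that pattern as closely: FTH1 was 650.0 and 799 CPM in LP 1 and LP 2, below every BL library. PLIN5 was 14.1 and 16.5 CPM there, also below all BL libraries. KCNIP2 was 1.80 and 1.95 CPM in LP 1 and LP 2, 2.57 to 8.93 CPM in LP 3 to LP 6 and 1.70 to 32.4 CPM in STD-STD, so STD was the only 1 of these groups with no value in the BL range. In STD-STD, CPT1A ran from 5.43 to 15.3 CPM, FTH1 from 525 to 841 CPM and POLR3GL from 7.81 to 12.0 CPM, all below the lowest BL library. PSAT1 in STD-STD ran from 17.5 to 268 CPM with a median of 55.4, between the medians of BL and STD.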

How the data were processed

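Muscle RNA was sequenced, and 13 of 67 libraries were compared, the others being kept in the fit to estimate the spread. The authors deposited raw read counts for 18158 genes, per the file headers. RNA was extracted with a Qiagen RNeasy kit and sequenced on Illumina instruments, per the labels' protocols. The submitters' processing notes name Sscrofa11.1 and the tool DESeq2. An aligner, a counter and a strand setting were not given in the sources used here, so reads of overlapping genes and near-identical copies cannot be assigned with certainty. Of the low counts, 18638 values were 2 and 3454 were 1, for which the files give no reason. Coordinates come from the RefSeq table of that build, which held 93.6% of the symbols.

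Counts were tested with edgeR 4.0.16 (R 4.3.3): genes were kept by filterByExpr, scaled by TMM, and given a robust quasi-likelihood F test of STD minus BL, Benjamini-Hochberg adjusted, at 0.05. Standard errors were derived from the F statistic. CPM used TMM factors, and list scores are mean log2 CPM (prior count 2). The share of counts from the 8 mitochondrial transcripts was tested by an exact two-sided permutation test over libraries, with a smallest possible p of 0.00117. The fit was checked on simulated counts with 200 changed genes. These counts had the same spread for every gene and no outlying library, so the check does not cover the effect of BL 4. Python 3.11.15 with scipy 1.17.1, pandas 2.3.3 and matplotlib 3.10.9 was used for permutations and figures.

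Named genes were the 15 largest rises and falls among called genes that have a symbol and average 1 log2 CPM or more, the 5 lowest p-values in each direction, and members of 60 gene lists. The members and lists were chosen with earlier results of these data known. The count was repeated with limma voom 3.58.1 (with quality weights), DESeq2 1.42.0, RLE factors, other filters, other sets of libraries in the fit, the replicate number as a block, summed Y-linked counts as a covariate, each library left out and a threshold of 0.01. Fits without BL 4 and STD 4 together, and mitochondrial shares without libraries other than BL 4, were added after seeing the data. Labels do not say which libraries share a litter, so every library was treated as independent. The edgeR p-values rest on a spread estimated within the groups of all 67 libraries, except where a smaller fit is named. A search of promoters was not analysed here. Some genes are not reported here.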

Additional observations from a re-analysis of the deposited data

Results flagged for a closer look

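Of 252 groups of libraries examined (each named gene and main list score within BL or within STD), 56 had a library standing far from its own group. The rule flags about 5% of unrelated groups by chance. That share is no reference here, because many genes were named for falls that BL 4 made large, and genes vary together within a library. BL 4 was that library in 33 of them, STD 4 in 10 and BL 6 in 7.

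BL 4 was far above the other 6 BL libraries for genes of protein breakdown and of the glucocorticoid list. It measured FBXO32 at 1519.7 CPM, TRIM63 at 648 CPM, PSMD11 at 554 CPM, PSMD14 at 97.4 CPM, PSMB4 at 193 CPM, FKBP5 at 671 CPM, FOXO1 at 197 CPM, FOXO3 at 323 CPM, CEBPD at 288 CPM, GLUL at 1914 CPM, ARRDC3 at 355 CPM and GADD45G at 284 CPM. The glucocorticoid list score was 7.43 mean log2 CPM there. For genes of fat and fuel use, BL 4 measured PDK4 at 4249 CPM, KLF15 at 63.1 CPM, LPIN1 at 221 CPM, SLC25A20 at 48.6 CPM, ACACB at 149 CPM, HSDL2 at 168 CPM, CD36 at 444 CPM, PLIN2 at 151 CPM and LIPE at 389 CPM, again all high for its group. Other high values in BL 4 were HMOX2 at 665 CPM, AMPD3 at 234 CPM, RETREG1 at 614 CPM, ZDHHC9 at 579 CPM, GALNT15 at 81.7 CPM, SMPDL3A at 203 CPM, IL6R at 213 CPM and CCDC71L at 265 CPM. It was low for COX6C at 69.8 CPM, for SLC38A4 at 17.1 CPM and for the cholesterol synthesis score at 2.37 mean log2 CPM.

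BL 6 was the high BL library for genes of the amino acid response, with ATF5 at 87.6 CPM, FGF21 at 26.7 CPM, ARG2 at 45.4 CPM, SARS1 at 228 CPM, IARS1 at 162 CPM and EPRS1 at 91.6 CPM, and for FASN at 186 CPM. STD 4 was the high STD library for fat oxidation and storage, with HADHA at 313 CPM, HADHB at 231 CPM, ACADM at 209 CPM, ETFDH at 162 CPM, FABP3 at 169.7 CPM and PLIN5 at 27.9 CPM, and for TXNIP at 252 CPM and LDHB at 288 CPM. The same library was low for MIOX at 1.56 CPM and for the amino acid synthesis score at 3.86 mean log2 CPM.

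Single values elsewhere were high for their group. STD 1 held ANGPTL4 at 17.1 CPM and SREBF2 at 82.3 CPM, STD 5 held TRIB3 at 33.6 CPM, and BL 5 held GRK3 at 19.8 CPM. ANKRD1 stood apart in both groups, at 176 CPM in BL 7 and 1808 CPM in STD 2.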

How the results depend on the processing

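The total of 905 calls (354 higher, 551 lower) was 903 with RLE factors, 1051 with DESeq2, 966 with limma voom, 794 without a count filter, 944 with a CPM filter and 886 with the Y-linked covariate. Fits on fewer libraries called fewer genes: 106 (40 higher, 66 lower) with the 13 libraries, 267 (95 and 172) with 12 of them without BL 4, and 193 (73 and 120) with libraries 1 to 19. At a threshold of 0.01 the count was 333 (131 and 202). Leaving out 1 library gave 555 to 1165 calls, 202 to 470 higher and 334 to 695 lower, the 334 being without BL 4.

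Without BL 4 and STD 4 together, 821 genes were called (430 and 391), and fuel regulators and glucocorticoid targets had 3 lower members each. The carnitine shuttle had 5 (libraries 1 to 19) to 7 and beta-oxidation 6 to 8 lower members over the alternatives run. With limma voom, fuel regulators had 4 lower members, cholesterol synthesis 5 higher and glucocorticoid targets 3 lower. In the 13-library fit the higher members were 2 ATF4 regulators, 5 synthesis genes, 2 transporters, 4 tRNA synthetases, 1 cholesterol gene and 0 fatty acid synthesis genes, and 2 glucocorticoid targets were lower. In the 12-library fit these were 2, 6, 2, 3, 1, 0 and 2, and with libraries 1 to 19 they were 1, 4, 2, 5, 3, 1 and 2, beside 4 lower fuel regulators. At 0.01 they were 3 regulators, 4 transporters, 4 cholesterol genes, 1 fatty acid synthesis gene and 6 glucocorticoid targets. Over single libraries left out, the ranges were 4 to 10 ATF4 regulators, 10 to 11 synthesis genes, 5 to 7 transporters, 10 to 13 synthetases, 4 to 12 cholesterol genes, 1 to 6 fatty acid synthesis genes, 5 to 7 fuel regulators and 2 to 13 glucocorticoid targets.

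Of 115 genes named, 4 changed direction without BL 4. PSMD11 was 0.33, PSMB4 0.33, AMPD3 0.69 and CCDC71L 0.78 (log2) then. Without BL 4 and STD 4 they were 0.35, 0.36, 0.52 and 0.69, and with limma voom 0.34, 0.34, 0.21 and 0.60. With DESeq2 AMPD3 was 0.54 and CCDC71L 0.74, and in the 12-library fit 0.69 and 0.78. Over each single library left out, these 4 ran from -0.69 to 0.33, -0.18 to 0.33, -3.86 to 0.69 and -2.13 to 0.78. In the 13-library fit 58 of the 115 no longer passed, and all 115 kept their direction. The difference in mitochondrial share was -1.48 to -1.17 percentage points over single libraries left out, and -0.93 after TMM scaling, where the exact p was 0.0175. Its cause, and the cause of the other changes, was not tested.

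The deviations of same-numbered BL and STD libraries correlated at -0.15 to 0.14, and only number 1 matched its own number best. No pairing by replicate number was seen, but a shared litter or shared handling need not appear in such correlations. With the replicate number as a block, 724 genes were called (315 higher, 409 lower), 697 of them shared with the fit without the block.

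Depth was 26680567 counts or more per library, and SLC7A11 and KCNN1 had no reads in at least 1 library. BL is not defined by the labels, and library number goes with group.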

Other observations

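Gene groups outside the comparisons above are set beside all tested genes, of which 4.08% fell and 2.62% rose with BL 4. Without BL 4 these shares were 2.47% and 2.37%. Of 26 autophagy and lysosome genes 5 fell with BL 4 and none fell without it, where 2 rose. Of 29 genes of insulin and S6 kinase signalling 5 fell and 1 rose with BL 4, and none fell and 1 rose without it. Of 21 genes of folding in the endoplasmic reticulum 1 rose with BL 4 and 3 without it. No member passed in either fit among 14 developmental sarcomere genes, 18 genes of the neuromuscular synapse or 12 genes of antigen presentation. Of 17 genes that break down branched-chain amino acids none passed with BL 4 and 1 fell without it, at a median log2 difference of 0.05 and 0.08. Of 20 interferon-induced genes 1 fell with BL 4 and none passed without it. Differences below 0 numbered 19 of 20 with BL 4, at a median of -0.81, and 16 without it, at a median of -0.40. The BL libraries spanned 2.91 to 5.88 mean log2 CPM on this list, and the STD libraries 2.86 to 4.35. BL 4 held the 5.88, and the other BL libraries reached 5.44.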
